A study of Mus musculus with 6 samples.

Results

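Among the most abundant transcripts in these libraries, read by genome position, were noncoding RNAs: the nuclear long noncoding RNA Malat1, the small nuclear RNA 7SK (gene Rn7sk), the signal recognition particle RNA 7SL (gene Rn7s2) and a locus annotated with ribosomal RNA (Gm42418 and CT010467.1). They were counted in 4 of the 53509 rows of the count table, under the row names Ltbp3, Gm3776, Nemf and Esp16. The rows were chosen for their position on GRCm38 and for their high counts, so their abundance describes the choice and is given with no test. The names of the rows belong to other genes and are used here only as labels.

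RNA of C57BL/6 mice was sequenced in 6 libraries. Of these, 3 came from wild-type controls and 3 from samples labelled MIRI, for myocardial ischemia-reperfusion injury, a model that stops the blood supply of heart muscle and then lets it return. The design text gave an age of 21 days for both groups, and total RNA went into a TruSeq RNA library kit. The labels named retina, intervertebral disc and heart muscle in different fields, and the names of the MIRI files call those samples mutant, so the tissue is not stated here and the groups may differ in a genotype as well as in the injury. Whether each library came from its own animal was not stated, so every p-value rests on a spread between libraries that may be technical.

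Malat1 is a long RNA that stays in the nucleus, where it gathers at speckles that hold splicing factors. It is made by RNA polymerase II, but its 3′ end is cut by RNase P ahead of a small tRNA-like RNA, and a triple helix of U-rich motifs and an A-rich tract protects that end in place of a long poly(A) tail. 7SK and 7SL are both made by RNA polymerase III. 7SK binds the proteins Hexim1, Larp7 and Mepce and holds the elongation factor P-TEFb (Cdk9 with cyclin T) inactive, while 7SL is the scaffold of the signal recognition particle that brings ribosomes making secreted proteins to the endoplasmic reticulum. Ribosomal RNA is made as a long precursor by RNA polymerase I in the nucleolus and makes up most of the RNA of a cell.

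Each of the 4 rows spans the same length as the gene it is named for, but at another place on the chromosome than in GENCODE M21 on GRCm38. The row Ltbp3 (chromosome 19, 5790932 to 5808560, 23 intervals of 9069 bp in all) starts 50028 bp after the annotated gene Ltbp3. Its intervals cover 3020 bp, or 43.2%, of the single-exon lincRNA Malat1 (ENSMUSG00000092341.3, chr19:5795690-5802672, minus strand) in 10 pieces. No other row of the table lies on Malat1, so this row was the table's measure of it.

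The row Gm3776 (chromosome 9, 78164411 to 78176448, 874 bp) covers the last 121 bp of Rn7sk (ENSMUSG00000065037.1, chr9:78175303-78175633, minus strand), which is 36.6% of that RNA. It also covers 185 bp in exons of the kinase gene Ick. The only other row on Ick exons, Gsta4, covers 142 bp of them and held 8.21 CPM (counts scaled to 1e6 counts of the library), against a mean of 27541 CPM in the row Gm3776.

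The row Nemf (chromosome 12, 69357296 to 69403939, 10549 bp) covers all 300 bp of Rn7s2 (ENSMUSG00000099250.1, minus strand). It also covers a processed pseudogene, Gm18113, over 303 bp, and the miRNA entries Gm47299 and Gm47305, both of which lie within or at the edge of Rn7s2. The counts give no way to divide the row among these, and the genome holds near-identical copies of 7SL, such as the gene Rn7s1, whose reads may not be told apart from those of Rn7s2.

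The row Esp16 (chromosome 17, 39847033 to 39851738, 1243 bp) covers 196 bp of Gm42418 (ENSMUSG00000098178.1, annotated as a lincRNA, chr17:39846958-39848788, plus strand). On the opposite strand it covers 192 bp of CT010467.1 (ENSMUSG00000106106.2, annotated as rRNA, chr17:39846353-39848827, minus strand). The counting used no strand setting, so reads of both cannot be told apart, and ribosomal sequence is present in many near-identical copies in the genome.

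**Figure D1:**
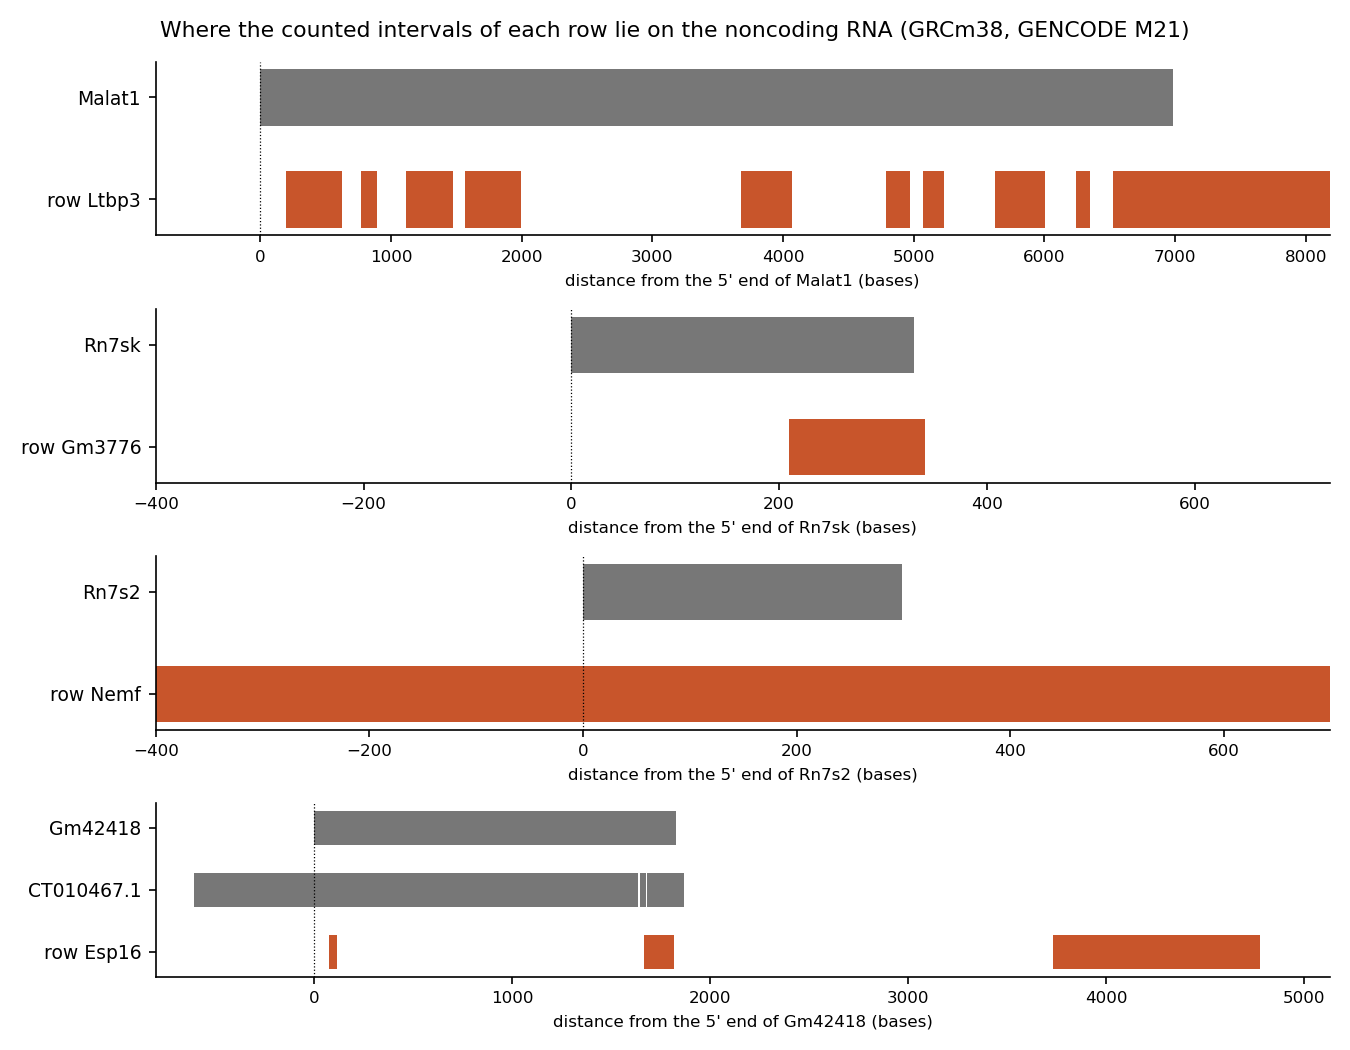
Intervals of each row (orange) and annotated exons of the noncoding RNA it lies on (grey), as the distance in bases from the 5′ end of the first RNA named in each panel. The row Ltbp3 crosses Malat1 in 10 pieces, Gm3776 holds the last 121 bases of Rn7sk, Nemf spans the whole of Rn7s2, and Esp16 touches Gm42418 in a short and a longer stretch (42 and 154 bp).

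Sequences that were counted for Malat1, Rn7sk and Gm42418 are shown as transcribed, from the GENCODE M21 transcripts on GRCm38, with T for U. The first is from the 3′ end region of the annotated Malat1 transcript (bases 6586 to 6765, chr19:5795908-5796087, minus strand), shown because it carries the triple helix. It lies within the last 459 bases of the annotated transcript, which the row Ltbp3 covers without a break. Its capitals mark the longest run of A, which is part of the A-rich tract, and both U-rich motifs. These motifs were found as runs of T of at least 10 letters broken by 1 or 2 other bases.
Malat1: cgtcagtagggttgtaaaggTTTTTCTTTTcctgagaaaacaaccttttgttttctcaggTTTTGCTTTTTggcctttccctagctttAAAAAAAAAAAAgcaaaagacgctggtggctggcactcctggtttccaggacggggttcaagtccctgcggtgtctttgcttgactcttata

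The longest run of A in Malat1 has 12 bases, and its end lies 298 bases before the end of the annotated transcript. Of 141767 annotated transcripts, 3.53% hold TTTTTCTTTT on their own strand (6.89% on either strand), 0.427% hold TTTTGCTTTTT (0.858% on either strand) and 7.17% hold a run of at least 10 A (13.6% on either strand). The runs of A and T in these motifs can overlap one another in other transcripts. All 3 were found on the own strand of 37 transcripts, or 0.0261%. A match is a match of letters in a transcript of any length.

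The second is the end of Rn7sk (bases 181 to 331, chr9:78175303-78175453, minus strand), where the capitals mark the 121 bases inside the row Gm3776.
Rn7sk: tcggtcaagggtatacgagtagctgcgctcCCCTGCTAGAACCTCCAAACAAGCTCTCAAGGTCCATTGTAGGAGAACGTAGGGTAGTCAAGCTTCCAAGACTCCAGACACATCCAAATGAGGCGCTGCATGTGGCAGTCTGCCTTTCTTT

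The last are both stretches of Gm42418 inside the row Esp16 (chr17:39847033-39847074 and chr17:39848623-39848776, plus strand), also in capitals throughout.
Gm42418 stretch 1: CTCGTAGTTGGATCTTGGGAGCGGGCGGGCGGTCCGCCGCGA
Gm42418 stretch 2: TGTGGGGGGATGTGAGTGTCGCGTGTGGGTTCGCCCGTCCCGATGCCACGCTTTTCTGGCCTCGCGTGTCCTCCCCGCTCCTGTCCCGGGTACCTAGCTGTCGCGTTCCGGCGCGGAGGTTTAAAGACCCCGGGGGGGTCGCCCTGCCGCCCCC

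The RNAs differ in base composition. Gm42418 and Rn7sk are 60.2% and 58.0% G and C, above the median of 49.2% over all annotated transcripts, and Malat1 is below it at 42.5%. The longest run of A is 6 bases in Gm42418 and 3 in Rn7sk, against a median of 5 over all transcripts. Rn7sk ends in 3 T, as RNAs closed at the T-rich stop signal of RNA polymerase III do.

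Rows that carry the names of these RNAs did not measure them. The row named Malat1 lies on 2999 bp of Frmd8 and held 61.2 to 87.9 CPM. The row named Neat1, for the RNA that builds paraspeckles next to Malat1 speckles, lies on Slc25a45 and Tigd3 and held 40.5 to 56.2 CPM, and no row lies on Neat1 itself. The row named Rn7s1 held 1 to 9 counts per library, and the rows named Rn7s2 and CT010467.1 held 0 counts in all 6 libraries. The row named Malat1 averaged 75.2 CPM, whereas the row that lies on Malat1 averaged 60569.

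The libraries held 6859481 to 9250952 counts, and 1 count was 0.108 to 0.146 CPM. Control 2 and MIRI 1 stood apart from the other libraries: their deviations from their group means correlated over all tested rows (Pearson r = 0.382 across rows, which are not independent), and both had the lowest Malat1 and the highest rRNA-like levels of their group. Each group holds 1 of these libraries. The fold change of each row is therefore also given without both. Markers of endothelial cells and Y-linked genes were unequal between the groups, although edgeR in the main setting called none of them (smallest adjusted p 0.0820 and 0.263). Among the genes of all lists, DESeq2 called 4 higher and 6 lower. The 8 measured genes of the endothelial list summed to 346 to 872 CPM in controls and 186 to 236 CPM in MIRI libraries, and 7 of the 8 did not overlap between groups, against 8.94% of all genes tested by position. The 4 Y-linked genes summed to 1.51 to 6.59 CPM in controls and 26.2 to 310 CPM in MIRI libraries, and 4 of the 4 did not overlap between groups. Whether the sex of the mice differed between the groups was not tested. The part of both lists in the values of the noncoding RNAs was not tested either. Markers of the labelled tissues could be read only in part, since 5 of 14 sarcomere, 7 of 14 photoreceptor and 3 of 15 disc and cartilage genes had a row assigned by position. Those sarcomere genes summed to 2.42 to 8.11 CPM, with Myh6 and Actn2 at 0 in every library. The photoreceptor genes summed to 17.3 to 33.8 CPM, with Gngt1 at 0 in every library. The disc and cartilage genes summed to 6.09 to 9.82 CPM. Fibroblast and matrix genes summed to 60158 to 83461 CPM. In these bulk samples, fewer cells of a type and less RNA per cell cannot be told apart.

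The row on Malat1 was the highest row of every library. The row Ltbp3 was at 68220, 51271 and 65653 CPM in control 1, 2 and 3 and at 49396, 67653 and 61218 CPM in MIRI 1, 2 and 3. Control 2 and MIRI 1 were the low libraries, the other 4 lay between 61218 and 68220, and the groups overlapped. The means were 61715 ± 9135 CPM in controls and 59422 ± 9260 CPM in MIRI libraries (SD, n = 3 each). The log2 fold change of MIRI over control was -0.045 ± 0.20 (SE; 95% interval -0.49 to 0.40), a fold of 0.969 with an interval of 0.710 to 1.32, and edgeR's quasi-likelihood test gave an adjusted p of 0.9996. Without control 2 and MIRI 1 the log2 fold change was -0.036 (95% interval -0.23 to 0.16).

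As a share of all counts, the row on Malat1 made up 6.82%, 5.13% and 6.57% of control libraries and 4.94%, 6.77% and 6.12% of MIRI libraries. The 95% Wilson interval of each share was at most 0.0511 percentage points wide, so the counting error was far below the differences between libraries. Such intervals cover counting error only. The group means of 6.17% and 5.94% differed by -0.229 percentage points (exact permutation test, two-sided p = 0.7, where 3 against 3 libraries cannot give a p below 0.1).

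**Figure D2:**
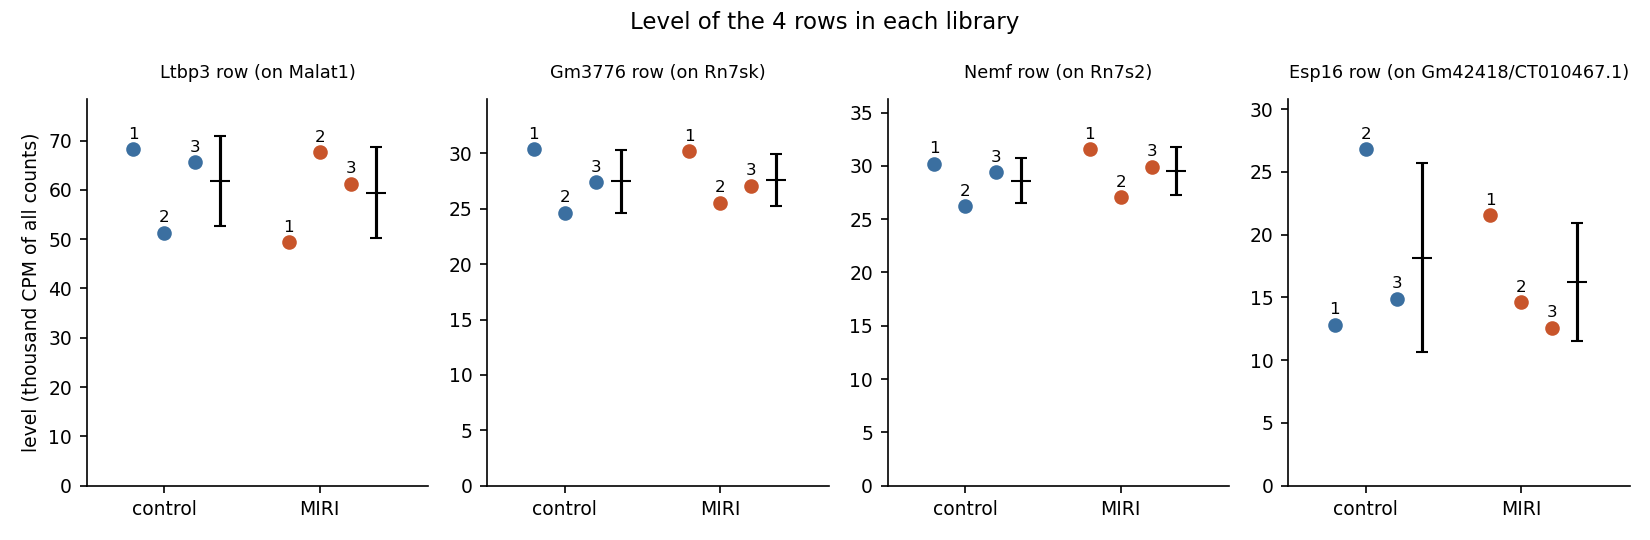
Level of each row in CPM divided by 1000, for control (blue) and MIRI (orange) libraries, numbered by replicate. Bars beside the points give the mean ± SD of 3 libraries. The groups overlap in all 4 panels, and control 2 and MIRI 1 are the lowest for Malat1 and the highest for the rRNA-like row within their groups.

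7SK was the steadier of the nuclear RNAs. The row Gm3776 was at 30372, 24639 and 27412 CPM in control 1, 2 and 3 and at 30186, 25545 and 27091 CPM in MIRI 1, 2 and 3. The highest libraries, control 1 and MIRI 1, and the lowest, control 2 and MIRI 2, came 1 from each group. Means were 27474 ± 2867 and 27608 ± 2363 CPM (SD, n = 3 each), and the log2 fold change was 0.0088 ± 0.14 (SE; 95% interval -0.31 to 0.33; edgeR adjusted p = 0.9996). On the linear scale the interval ran from 0.807-fold to 1.25-fold. Its share of all counts was 2.46% to 3.04%, with group means of 2.75% and 2.76% (exact permutation p = 1.0). Without control 2 and MIRI 1 the log2 fold change was -0.12 (95% interval -0.31 to 0.077).

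7SL had the smallest spread. The row Nemf was at 30216, 26199 and 29382 CPM in control 1, 2 and 3 and at 31553, 27070 and 29911 CPM in MIRI 1, 2 and 3. The lowest libraries were again control 2 and MIRI 2, and the groups overlapped. Means were 28599 ± 2120 and 29512 ± 2268 CPM (SD, n = 3 each), with a log2 fold change of 0.048 ± 0.14 (SE; 95% interval -0.26 to 0.36; edgeR adjusted p = 0.9996) and a linear interval from 0.835-fold to 1.28-fold. Shares ran from 2.62% to 3.16%, and the group means of 2.86% and 2.95% gave an exact permutation p of 0.6. Without control 2 and MIRI 1 the log2 fold change was -0.046 (95% interval -0.24 to 0.15).

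The rRNA-like row varied most. The row Esp16 was at 12809, 26792 and 14887 CPM in control 1, 2 and 3 and at 21519, 14618 and 12583 CPM in MIRI 1, 2 and 3. Control 2 and MIRI 1 were high, the other 4 libraries lay between 12583 and 14887 CPM, and both groups held high and low libraries. Means were 18163 ± 7545 and 16240 ± 4684 CPM (SD, n = 3 each). The log2 fold change was -0.16 ± 0.28 (SE; 95% interval -0.79 to 0.47; edgeR adjusted p = 0.9996), or 0.896-fold with an interval of 0.578 to 1.39. The sign rested on single libraries: the log2 fold change was 0.20 without control 2 and -0.37 without MIRI 1. Without both it was -0.0098 (95% interval -0.28 to 0.26). Shares of all counts ran from 1.26% to 2.68% (group means 1.82% and 1.62%, exact permutation p = 0.6).

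Within groups, the coefficient of variation was 36.5% for the rRNA-like row, 15.2% for Malat1, 9.54% for 7SK and 7.56% for 7SL. The 84 rows with a mean of at least 1000 CPM had a median of 12.3%, with quartiles of 7.82% and 16.7%. The RNA polymerase III products thus lay below that median, the 7SL row just under the lower quartile, and the rRNA-like row far above the upper quartile. The ratio of the highest to the lowest library was 2.13 for the rRNA-like row, 1.38 for Malat1, 1.23 for 7SK and 1.2 for 7SL.

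None of the 4 rows was called between the groups, and neither was any other row: edgeR called 0% of 15777 tested rows higher and 0% lower at an adjusted p of 0.05. At an unadjusted p below 0.05 there were 685 rows, or 4.34%, none of them among the 4, whose unadjusted p ran from 0.581 to 0.951. Groups did not overlap in 8.81% of tested rows, and they overlapped in all 4 rows on the noncoding RNAs. DESeq2 called 6 rows higher and 80 lower, and gave the 4 rows an adjusted p of 0.9999 each. Over all 17 settings, the adjusted p of the 4 rows ranged from 0.900 to 1.0. The 95% intervals include folds from 0.710 to 1.32 for Malat1 and from 0.578 to 1.39 for the rRNA-like row. These are folds that the values of 3 libraries per group leave possible. They are not limits beyond which a change would have been called, since the calls were adjusted over 15777 rows.

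**Figure D3:**
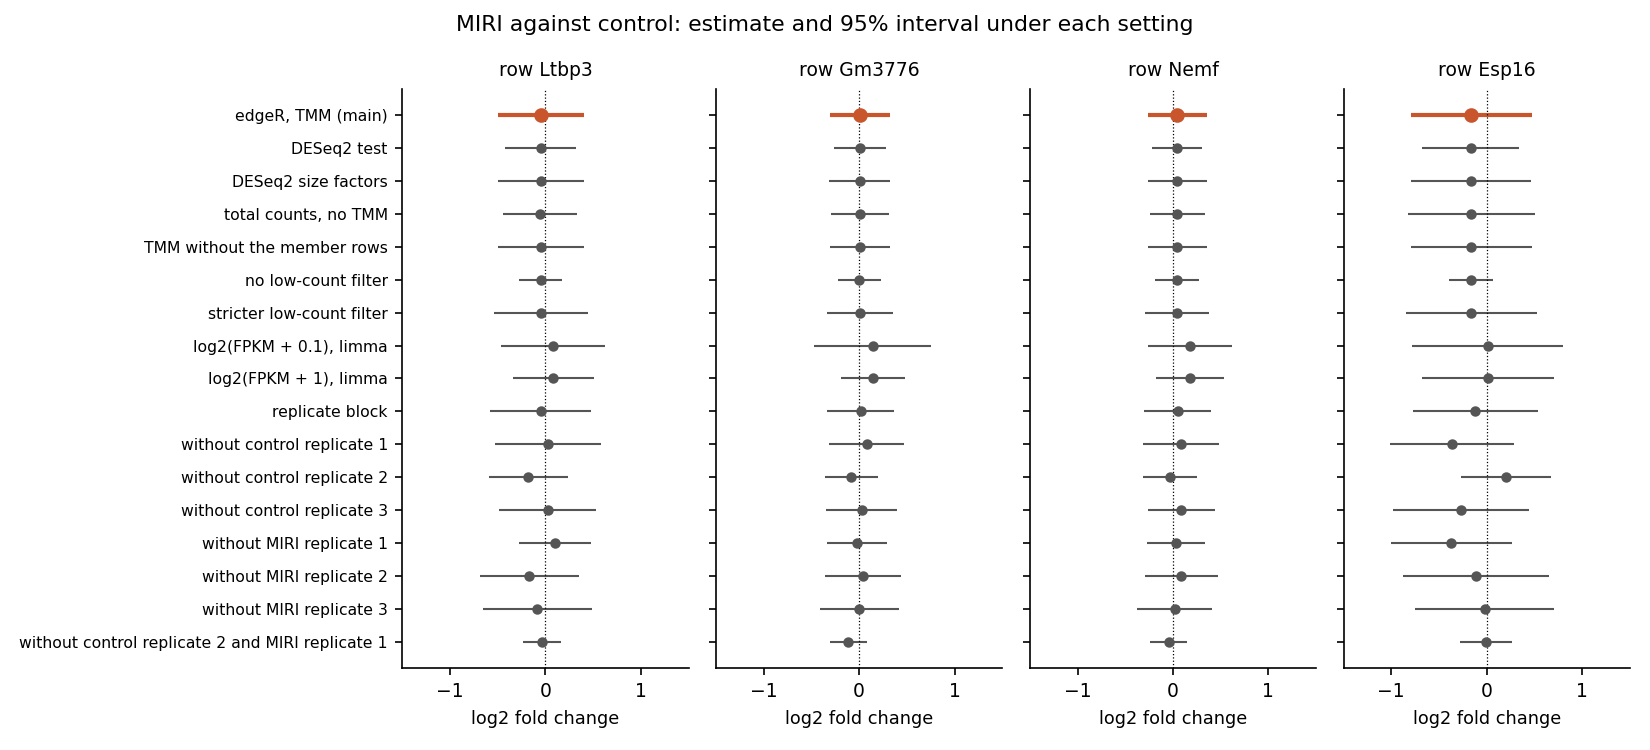
Log2 fold change of MIRI over control with its 95% interval for each row under the main setting (orange) and 16 alternatives (grey). All intervals cross 0, and in the main setting the widest is that of Esp16, whose estimate runs from -0.37 to 0.20 as single libraries are left out.

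Together the 4 rows took 14.2%, 12.9% and 13.7% of all counts of control 1, 2 and 3, and 13.3%, 13.5% and 13.1% of MIRI 1, 2 and 3. Relative to its mean, that total was steadier than its parts. In percentage points its SD in the controls, 0.647, was above those of Gm3776 (0.287) and Nemf (0.212). Control 2 and MIRI 1 held fewer Malat1 counts and more rRNA-like counts than the other 4 libraries. The means of 13.6% ± 0.647 and 13.3% ± 0.204 (SD, n = 3 each) differed by -0.317 percentage points (exact permutation p = 0.5). By mean level the rows held ranks 1 (Ltbp3), 2 (Nemf), 3 (Gm3776) and 5 (Esp16) of 33153 rows with any count, whose median was 1.03 CPM. The row Atic, at 18453 CPM, came between them, and the row Fn1 followed in place 6 at 16839 CPM. Both lie on the fibronectin gene Fn1, which, summed by position, held 34587 ± 3479 CPM in the controls and 35996 ± 5215 CPM in the MIRI libraries (SD, n = 3 each), above the rows on 7SL and 7SK. In single libraries the row on Malat1 was always first, those on 7SL and 7SK took places 2 to 4, and the rRNA-like row moved between place 2 in control 2 and place 9 in MIRI 3.

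**Figure D4:**
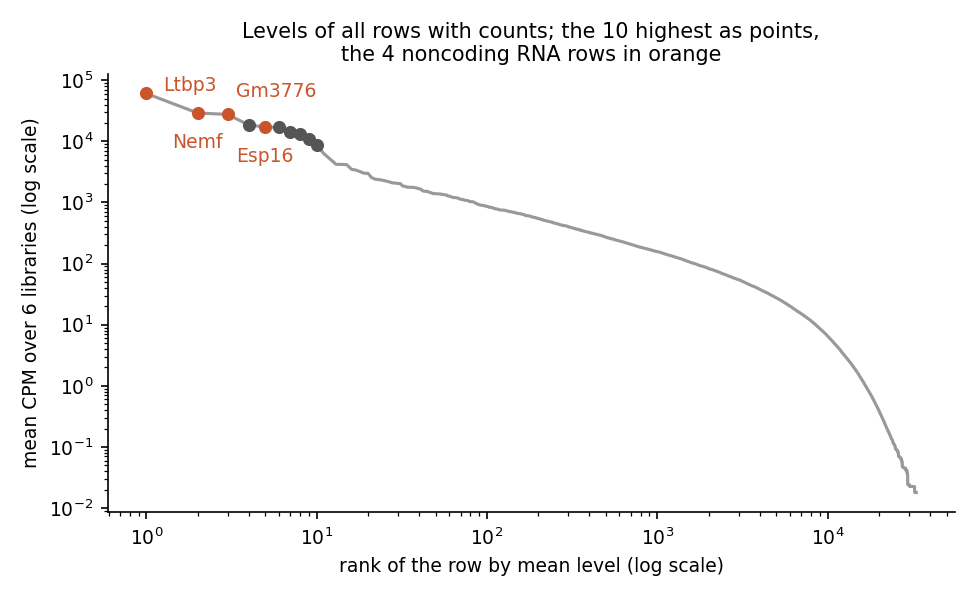
Mean CPM over 6 libraries against rank, both on log scales, for the 33153 rows with any count. The 10 highest rows are points, and the rows on Malat1, 7SL, 7SK and the rRNA-like locus (orange) hold places 1, 2, 3 and 5.

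These ranks compare counts of rows, not numbers of molecules, since the rows cover different parts of each RNA and their lengths differ. Per kilobase of row length, the mean level was 31511 CPM for Gm3776, 13839 for Esp16, 6679 for Ltbp3 and 2754 for Nemf. That order differs from the order by counts, and most of the length of each row lies outside the RNA.

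Ratios between the RNAs within a library do not depend on the library total. The ratio of the row on 7SK to that on 7SL stayed between 0.906 and 1.01 in the 6 libraries, a range of 0.15 on the log2 scale. The ratio of Malat1 to the rRNA-like row was 5.33, 1.91 and 4.41 in the 3 controls, in order, and 2.30, 4.63 and 4.87 in the 3 MIRI libraries, a log2 range of 1.48. Control 2 and MIRI 1 were thus set apart from the other 4 libraries, whose ratios lay between 4.41 and 5.33. None of the 6 pairs of rows differed in log2 ratio between the groups beyond the spread of the libraries (exact permutation tests, two-sided, p = 0.6 to 0.9, 0.9 each after adjustment over 6 pairs).

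Across libraries the levels of 7SK and 7SL went together. Pearson's r over 6 libraries was 0.919 (exact permutation p = 0.0111) and Spearman's rho 0.886 (exact permutation p = 0.0333), and the adjusted p over the 6 pairs of rows was 0.0667, which misses 0.05. Without control 1 and MIRI 1, the 2 libraries farthest from the median of 7SK, r was 0.974 over 4 libraries. Both levels are shares of the same library total, which the 2 RNAs have in common. Malat1 and the rRNA-like row moved in opposite directions between control 2 and MIRI 1 on one side and the other 4 libraries on the other. Because the libraries fall into those 2 clusters, of 2 and 4, no pooled correlation is given and the relation cannot be tested.

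**Figure D5:**
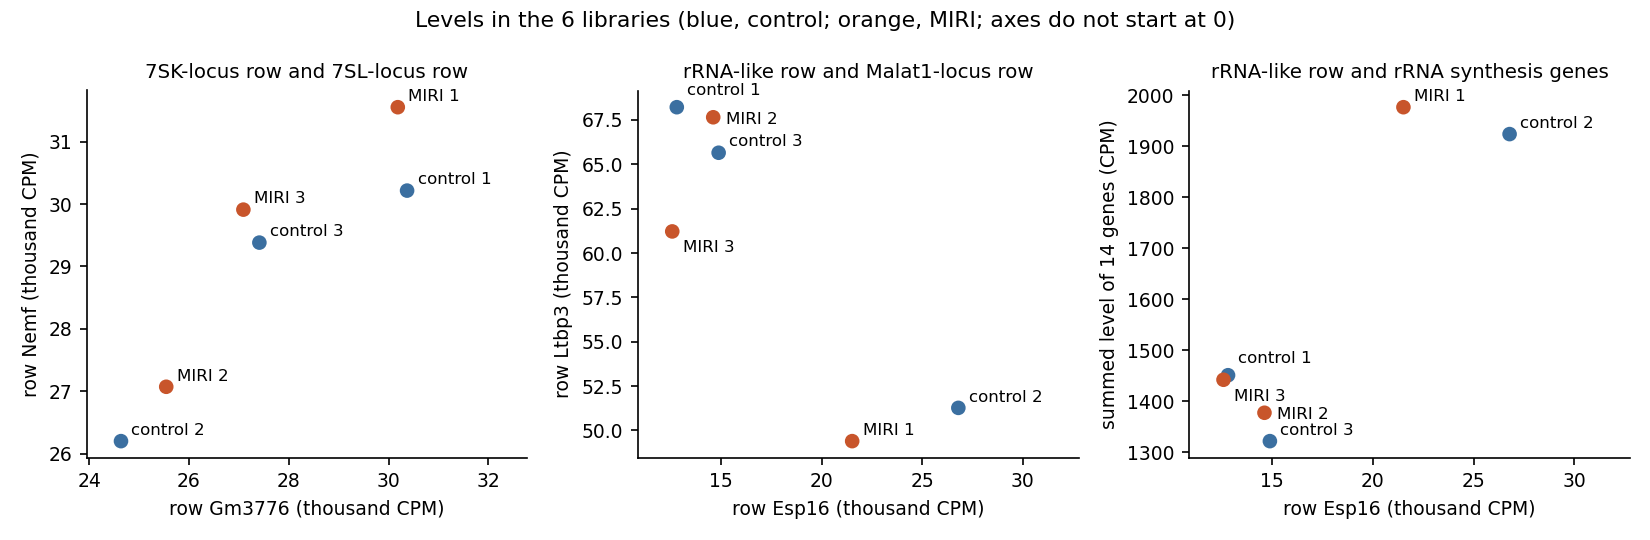
Levels of pairs of rows in each library (control blue, MIRI orange), in CPM divided by 1000, and in the right panel the summed CPM of 14 genes of ribosomal RNA synthesis. The rows on 7SK and 7SL lie along a line, while control 2 and MIRI 1 stand apart from the other 4 libraries in the middle and right panels.

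Genes that make or bind these RNAs were read by position, with rows assigned to the GRCm38 gene that holds at least 80% of the exon bases they overlap. Only part of each list could be measured. Over all 5917 tested genes, edgeR called 0% higher and 0% lower (272 genes, or 4.6%, at an unadjusted p below 0.05), and the median log2 fold change was 0.011. Groups did not overlap in 8.94% of genes. The smallest adjusted p in each of the lists of partner genes below was 0.9996.

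Of 17 genes of 7SK partners, 8 were tested, with a median log2 fold change of 0.027, and none was called (groups did not overlap in 0 of 8). Ccnt1, which encodes the cyclin T1 part of P-TEFb, was at 260, 281 and 265 CPM in the controls and at 316, 278 and 292 CPM in the MIRI libraries (log2 fold change 0.14 ± 0.085, SE). Mepce, which caps the 5′ end of 7SK, was at 43.7, 44.6 and 40.4 CPM in the controls and at 53.3, 43.9 and 42.5 CPM in the MIRI libraries. In both genes MIRI 1 was the highest library and the groups overlapped. In 5 of the 8 genes control 2 and MIRI 1, which were singled out after their values were seen, were the 2 highest libraries. This was so for 23.5% of all 5917 tested genes. The list's median ran from -0.036 (without control 3) to 0.096 (without control 2) as 1 library was left out.

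Of 22 genes of the signal recognition particle and the translocon it serves, 9 were tested. None was called, and the median log2 fold change was -0.050, with a range from -0.082 (without MIRI 3) to 0.043 (without MIRI 1) as 1 library was left out. The sum of all 11 genes with a row was steady, at 1582 to 1630 CPM in controls and 1514 to 1674 CPM in MIRI libraries. Srp9, a protein that binds the Alu domain of 7SL, was at 87.0, 86.0 and 94.6 CPM in the controls and at 94.7, 96.2 and 89.1 CPM in the MIRI libraries, and Srp68 had 30.8 ± 3.37 and 28.8 ± 4.44 CPM (SD, n = 3 each). Neither Srp9 nor Srp68 differed beyond the spread of the libraries. In 1 of the 9 genes, Srp68, control 2 and MIRI 1 were the 2 highest libraries, against 23.5% of all 5917 tested genes. In 2 of the 9 they were the 2 lowest, against 11.7% of all.

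Of 28 genes of nuclear speckles and Malat1 partners, 7 were tested and none was called (median log2 fold change 0.067). Leaving out 1 library moved that median between -0.040 (without MIRI 1) and 0.16 (without control 2). Their sum was 913, 1082 and 842 CPM in the controls and 1187, 860 and 885 CPM in the MIRI libraries, highest in control 2 and MIRI 1. The splicing factor U2af2 was at 147, 194 and 140 CPM in the controls and at 200, 149 and 153 CPM in the MIRI libraries. Pnn, a speckle protein that binds splicing complexes, was at 88.2, 88.0 and 76.1 CPM in the controls and at 117, 84.3 and 76.5 CPM in the MIRI libraries, where MIRI 1 alone was high. In 5 of the 7 genes, U2af2 and the alternative splicing factor Srsf3 among them, control 2 and MIRI 1 were the 2 highest libraries. Over all 5917 tested genes this was so for 23.5%. Both libraries were singled out after their values were seen, so this count is a description.

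Of 40 genes of ribosomal RNA synthesis and processing, 14 were tested. The median log2 fold change was 0.15, 12 of the 14 were above 0 (52.7% of all tested genes were), and none was called. The direction rested on 1 library: the median was -0.045 without MIRI 1, and 0.021 without both control 2 and MIRI 1. Their sum was 1451, 1924 and 1321 CPM in the controls and 1977, 1377 and 1442 CPM in the MIRI libraries. The high libraries were control 2 and MIRI 1, as for the rRNA-like row. In 12 of the 14 genes these were the 2 highest libraries, against 23.5% of all 5917 tested genes, and in 0 of the 14 they were the 2 lowest, against 11.7% of all. Both libraries were singled out after their values were seen, and each belongs to another group, so these counts are a description and not a group difference. Rrp12, which acts in the export and maturation of ribosomal subunits, was at 23.3, 28.9 and 22.6 CPM in the controls and at 37.3, 26.2 and 23.2 CPM in the MIRI libraries. Polr1e, a subunit of RNA polymerase I, was 1 of the 2 exceptions, at 29.8, 35.7 and 25.4 CPM in the controls and at 27.4, 27.0 and 24.0 CPM in the MIRI libraries. Npm1 (nucleophosmin), an abundant nucleolar protein, made up most of the sum, with 900 ± 220 CPM in the controls and 870 ± 154 CPM in the MIRI libraries (SD, n = 3 each). Ncl (nucleolin) was at 139, 191 and 152 CPM in the controls and at 227, 148 and 156 CPM in the MIRI libraries.

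Of 28 genes of the RNA polymerase III machinery, which makes 7SK and 7SL, 10 were tested and none was called (median log2 fold change 0.059). Their sum was 192 to 224 CPM in controls and 201 to 237 CPM in MIRI libraries. The initiation factor Brf2 was at 6.91, 7.67 and 6.70 CPM in the controls and at 9.69, 7.58 and 7.99 CPM in the MIRI libraries, with groups that overlapped. Control 2 and MIRI 1 were the 2 highest libraries in 3 of the 10 genes and the 2 lowest in 1. Over all 5917 tested genes these shares were 23.5% and 11.7%. The other RNA polymerase III transcripts and the small nuclear RNAs could not be followed: none of 13 listed genes of the first kind had a row assigned to it, and 1 of 29 of the second had one, which was not tested.

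In counts per gene, which are not scaled to length, Malat1 stood far above the other long noncoding RNAs assigned by position. Gm42418, annotated as a lincRNA, is not among them, since the row Esp16 also lies on CT010467.1 and was assigned to neither. The next, 3110039I08Rik, held 765 CPM on average, and the row on Malat1 held 79.2 times as many counts. AI506816, Gm13986 and Rian, an imprinted RNA of the Dlk1-Meg3 locus, followed at 704, 678 and 471 CPM. Of 1463 long noncoding genes with a row, 403 were tested. None was called, 16 had an unadjusted p below 0.05, and the median log2 fold change was 0.019. Of 40 listed nuclear and regulatory long noncoding RNAs other than Malat1, 12 were tested with a median of 0.084. Kcnq1ot1, an imprinted antisense RNA, was at 165, 169 and 144 CPM in the controls and at 202, 166 and 160 CPM in the MIRI libraries. Snhg11, a small nucleolar RNA host gene, was at 4.74, 6.44 and 5.30 CPM in the controls and at 9.28, 8.60 and 5.69 CPM in the MIRI libraries. Both overlapped between groups. Rows assigned to lincRNAs, Malat1 included, took 5.24% to 7.13% of all counts and rows assigned to protein-coding genes 52.3% to 54.9%.

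The genes whose levels followed each RNA most closely over the 6 libraries were picked by Pearson's r of log2 CPM among 3170 genes of at least 20 CPM, as a description with no test. For Malat1 they were Sptbn1 (r = 0.998), which encodes a spectrin of the membrane skeleton, Me1 (r = 0.990), the cytosolic malic enzyme, and Thsd7a (r = 0.990). Sptbn1 was at 1376, 866 and 1313 CPM in the controls and at 850, 1362 and 1175 CPM in the MIRI libraries, low in control 2 and MIRI 1 as Malat1 was. For 7SK they were Gmcl1, Hif1an and 2610002M06Rik (r = 0.986, 0.968 and 0.962), and for 7SL Ankle2, Mllt6 and Dolk (r = 0.973, 0.970 and 0.965). For the rRNA-like row they were Galc, a lysosomal enzyme, Skil, a repressor of Smad signalling, and Srrm2, a large speckle protein (r = 0.992, 0.988 and 0.985). Skil was at 67.9, 99.7 and 75.3 CPM in the controls and at 94.8, 73.0 and 65.8 CPM in the MIRI libraries. All of these points share the library total. For Malat1 and the rRNA-like row they also fall into the clusters of 2 and 4 libraries, so those values of r mainly show which genes set control 2 and MIRI 1 apart in the same way. Above r = 0.95 there were 29 genes for Malat1, 14 for the rRNA-like row, 6 for 7SL and 4 for 7SK.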

How the data were processed

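RNA-seq was done on 3 control and 3 MIRI mouse samples. The authors deposited whole-number counts per row. Per the file headers, featureCounts 2.0.1 summed exons by gene name, required both mates, left out chimeric pairs and used no strand or multi-mapping option. The same table holds FPKM values deposited by the authors, which equal counts divided by row length and by the squared library total, and which served only as an alternative. The submitters' processing notes list Bowtie 0.12.2, mm8 and mm9, while the design text names other aligners. Which build the annotation used is not given in the sources used here. Coordinates are those of the files, laid over GENCODE M21 exons on GRCm38 with bedtools 2.31.1 without conversion: 36.8% of rows overlap an exon and hold 95.1% of counts.

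All rows were fitted with edgeR 4.0.16 (quasi-likelihood, TMM, default low-count filter, group only, two-sided, Benjamini-Hochberg at 0.05) in R 4.3.3. Counts of rows assigned to a gene by position (at least 80% of overlapped exon bases and at least 50 bp) were summed, which gave 11910 genes from 14930 rows with 61.4% of counts. The fit was tested on simulated data for this comparison: of 200 rows changed 2-fold, 127 were recovered with 7 false calls among 15802 rows, and of 200 changed 4-fold, 200 were recovered with 7 false calls among 15828. The simulation gave all rows a common spread between libraries and changed only rows above a set level. It did not include the split of control 2 and MIRI 1 from the other libraries. These counts therefore do not show what would be recovered among rows that vary more. Shares and ratios were compared with exact permutation tests in scipy 1.17.1. Alternatives were DESeq2 1.42.0, other scaling and filters, limma 3.58.1 on log2(FPKM + 0.1) and log2(FPKM + 1), a replicate block and libraries left out. The members, gene lists and tests were chosen with earlier results of these data known. Named genes were the 4 rows, rows with the RNAs' names, the 10 highest rows, up to 3 genes per list with the smallest p, and the 3 genes most like each row. Npm1, Ncl, Srsf3 and the 4 most abundant other long noncoding RNAs were chosen after their values were seen. The sequence of the 7SL gene is not reported here.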

Additional observations from a re-analysis of the deposited data

How the results depend on the processing

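The edgeR estimates of the 4 rows were near 0, so their sign moved easily, while none was called under any of the 17 settings. The log2 fold change of the row Ltbp3 was 0.080 in both FPKM fits, and that of the row Esp16 was 0.013 in both. Gm3776 moved to 0.14 and Nemf to 0.18 in both, a larger move than when any 1 library was left out. On the log2(FPKM + 0.1) scale the median of all tested rows also moved, from 0.012 to 0.11, with Ltbp3 and Esp16 below it and Gm3776 and Nemf above it. The FPKM values are divided by the squared library total, so differences in library total between the groups enter these fold changes by construction. Leaving out 1 library at a time gave ranges of -0.18 to 0.10 for Ltbp3, -0.081 to 0.080 for Gm3776, -0.029 to 0.088 for Nemf and -0.37 to 0.20 for Esp16. Without control 2 and MIRI 1, an alternative chosen after seeing the data, Gm3776 was at -0.12 and Nemf at -0.046. The same range for the share of all counts, as MIRI minus control in percentage points, was -0.751 to 0.272 for Ltbp3, -0.129 to 0.158 for Gm3776, -0.0288 to 0.213 for Nemf and -0.460 to 0.239 for Esp16, and without both libraries the difference was -0.257 for Gm3776 and -0.131 for Nemf. For log2 ratios, leaving out 1 library gave -0.22 to 0.13 (Ltbp3 over Gm3776), -0.26 to 0.076 (Ltbp3 over Nemf), -0.38 to 0.42 (Ltbp3 over Esp16), -0.26 to 0.42 (Gm3776 over Esp16) and -0.21 to 0.42 (Nemf over Esp16). Without both libraries these were 0.077, 0.0100, -0.030, -0.11 and -0.040. The log2 ratio of Gm3776 over Nemf kept its sign, at -0.056 to -0.0025 with 1 library left out and -0.067 without both. The share of the 4 rows together kept its sign too, at -0.67 to -0.034 percentage points and -0.66 without both. The cause of the changes of sign with libraries left out was not tested.

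The number of rows called depended on the tool and filter, against 0 higher and 0 lower in the main fit. DESeq2 called 6 higher and 80 lower, no low-count filter gave 124 and 231, log2(FPKM + 0.1) gave 11 lower, leaving out 1 library gave 0 to 31 lower, and leaving out control 2 and MIRI 1 gave 1 higher. For genes by position, DESeq2 called 9 higher and 46 lower, no filter 4 and 28, leaving out 1 library 0 to 14 lower, and leaving out both 1 higher. Among listed genes, DESeq2 and the fit with no filter each called 4 higher and 6 lower, and leaving out 1 library gave 0 to 3 lower. Of the list medians under an alternative, 20 moved by more than their spread between libraries (1 SD) and 173 did not. Among the fits without 1 library, the highest counts came without control 1 (31 rows and 14 genes). The cause was not tested.

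The deviations of same-numbered libraries from their group means correlated at r = -0.154, -0.271 and 0.146 for replicates 1, 2 and 3. The labels do not say that a number marks a shared source. With 3 libraries per group, these values cannot settle whether it does. With the replicate block the log2 fold changes were -0.050, 0.014, 0.051 and -0.12 for Ltbp3, Gm3776, Nemf and Esp16, and 0 rows were called in either direction. Depth does not limit the 4 rows, whose spread lies between libraries. It limits the rarer genes of the lists, where 3 counts are 0.324 to 0.437 CPM.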
